A study of Sus scrofa domesticus with 4 samples.

Results

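The genes described here build the actin filaments of uterine smooth muscle and hold them in place: ACTA2, TPM1, TPM2, CNN1, SMTN, ACTN1, PDLIM3, DES and CFL2. They were taken from an array study of pig myometrium as all probes designed on a RefSeq transcript of these 9 genes, out of 3029 genes that could be named on the array. This gave 58 of 43603 probes, from 2 for ACTN1 and CNN1 to 21 for TPM1. The myometrium came from the middle of the uterine horns of mature Large White x Polish Landrace gilts, 7 to 8 months old and on days 15 to 16 of gestation. Explants of about 100 mg were preincubated for 2 h in a serum-containing medium. They were then kept for 24 h with orexin A (OXA), a neuropeptide that also acts outside the brain, or without it as non-treated controls. The labels of the samples give an OXA concentration of 10 nM, whereas the design text gives 10 µM. An explant holds every cell type of the tissue piece, and in such bulk RNA fewer cells of a type and less RNA per cell cannot be told apart.

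Force in smooth muscle comes from myosin pulling on thin filaments of alpha-actin, along which tropomyosin dimers lie end to end. Calponin and smoothelin bind the same filaments, and calponin slows the myosin ATPase. Alpha-actinin and its PDZ-LIM partners anchor filaments in dense bodies and dense plaques, which play the part that Z-lines have in striated muscle, while desmin forms the intermediate filaments that link dense bodies. Cofilins sever and depolymerise actin filaments. Many of these genes are controlled by serum response factor (SRF) with its cofactor myocardin, and their high expression is a hallmark of the contractile state of uterine muscle.

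Each of 4 dual-colour arrays carried OXA-treated and non-treated RNA. By the sample labels the treated RNA was in Cy5 on arrays 1 and 3, and the dyes were swapped on arrays 2 and 4. The labels name 4 gilts, and 4 experiments with cultures in duplicate, and do not state that the RNAs sharing an array came from 1 animal. All arrays lay on 1 slide. The labelling protocol instead words OXA as Cy5 throughout. Array 2 ran against the others: across the 19504 tested probes its log2 ratios correlated with those of array 4, which has the same dye orientation, at r = -0.379. Arrays 1 and 2 correlated at r = -0.591, while arrays 1 and 4 correlated at r = 0.618. Probes are not independent replicates. Because of the conflicting wording and the negative correlation of arrays with 1 dye orientation, the direction is not settled. Values are given as the sample labels set it, which is also the direction of the deposited value table. For each gene, the estimate of the brightest probe is also given with array 2 turned, and with the Cy5 channel taken as OXA throughout. With array 2 turned, each estimate comes from an unbalanced fit with a dye term and is not the plain mean of the 4 values.

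Most probes of the muscle genes were well above background. Of the 58 probes, 53 were so in all 8 channels, and 57 entered the test, beside 44.7% of all probes. Entry required a signal well above background on at least 3 arrays in 1 of the groups. The probe left out was 1 of 4 for PDLIM3. The tissue label was checked with genes outside the group: the smooth muscle genes MYLK, MYOCD and KCNMB1, the 3 of 11 such markers that could be named, were well above background in all channels. Of 11 named markers of striated muscle, 8 were too dim to be tested, among them MYH1, MYH4, MYH7, MYL1, TNNT3 and TNNC2, which were not well above background in any channel. The other 3, ACTA1, CKM and MYOG, were well above background in all 8 channels, as the smooth muscle genes were.

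As labelled, the brightest probe of ACTN1 was higher with OXA on every array and all 5 probes of TPM2 were lower on every array, but neither gene passed the test. The brightest probes of the other 7 genes had both signs among the 4 arrays. limma called 0 of the 57 tested probes of these genes and 0 of all 19504 probes (0%), at an adjusted p under 0.05. At an unadjusted p under 0.05 there were 2 of 57 probes, beside 237 of 19504 (1.22%). Fitting both channels separately in limma covered the 19437 probes with values on all arrays and gave 0 calls. Of these, 636 had an unadjusted p under 0.05, and 3 of 55 among the probes of these genes, the brightest ACTN1 probe being 1 of them. With 4 arrays, an exact two-sided sign-flip test cannot go below p = 0.125.

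**Figure D1:**
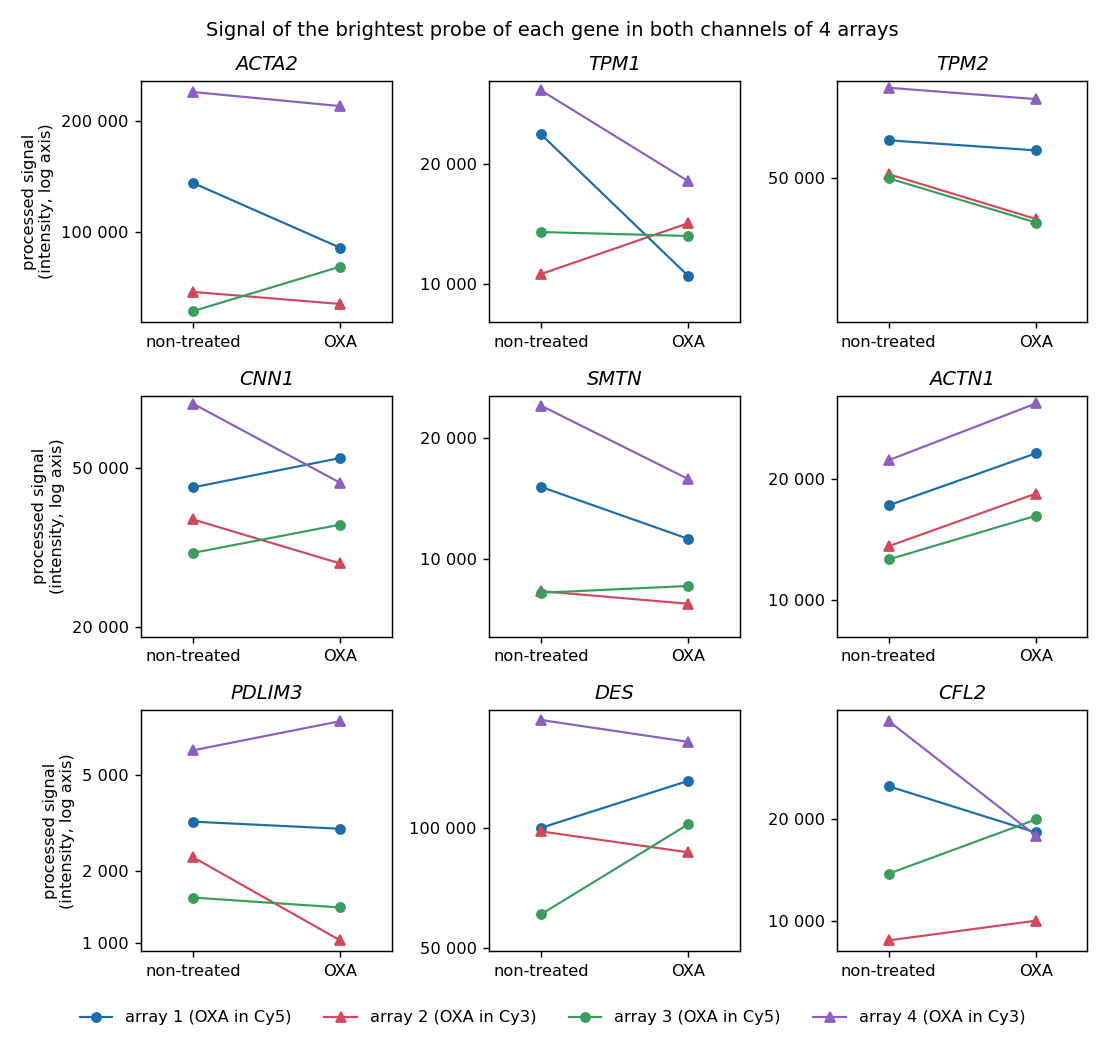
Processed signal (intensity, log axis) of the brightest probe of each gene in the non-treated and OXA channels, joined by array. Circles mark arrays with OXA in Cy5 and triangles arrays with OXA in Cy3. Only ACTN1 slopes upward and only TPM2 slopes downward on all 4 arrays, and the OXA and non-treated signals overlap for every gene.

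Of the thin filament itself, ACTA2 encodes smooth muscle alpha-actin (transcript NM_001164650). On arrays 1 to 4 its brightest probe had OXA signals of 91000, 64200, 80900 and 219000, and non-treated signals of 136000, 69200, 61400 and 239000. Array 4 was the brightest in both groups, and the groups overlapped across their whole range. The log2 ratios of OXA over non-treated were -0.58, -0.11, 0.40 and -0.13, with a mean of -0.10 ± 0.40 (SD, n = 4). OXA was lower on arrays 1, 2 and 4 and higher on array 3. The estimate was -0.075 with array 2 turned and 0.015 with Cy5 taken as OXA throughout. The 4 probes for ACTA2 averaged -0.10 to 0.055, and on each array they lay close together, with a mean SD between probes of 0.135 against 0.425 between arrays. In the deposited ratios the difference between arrays was thus shared by the probes of the gene. With normexp and loess the 4 probes were further apart on array 4, from -0.89 to 0.013.

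TPM2, a tropomyosin of the thin filament (NM_001129947), gave the most even picture among its probes. The brightest had OXA signals of 58600, 39500, 38700 and 78700 on arrays 1 to 4, beside non-treated signals of 62100, 51100, 49900 and 84000. Each OXA signal was below its partner on the same array, although the ranges of the groups overlapped. Log2 ratios were -0.083, -0.37, -0.37 and -0.096, a mean of -0.23 ± 0.16 (SD, n = 4) or 0.853-fold. Arrays 2 and 3, which differ in dye orientation, held the lower values. The limma estimate had a standard error of 0.259 (adjusted p = 0.998), so the shift was smaller than that error. All 5 TPM2 probes were below 0 on all 4 arrays, with means of -0.30 to -0.18 and a mean SD between probes of 0.0672 on 1 array. These were the only probes of the 9 genes with this pattern, 5 of 55 with values on all arrays (9.09%), beside 3.76% of all tested probes, and the 5 share 1 transcript. All 5 also lay below 0 on every array after median centring of the arrays, and with normexp background correction and loess. With array 2 turned, 0 of the 5 kept 1 sign on all arrays, and the brightest probe had an estimate of -0.060. Taking Cy5 as OXA throughout gave it 0.0050.

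TPM1, the other tropomyosin of the group (NM_001097483), is spliced into many isoforms in muscle and other cells, and its 21 probes disagreed. The brightest probe had OXA signals of 10500, 14200, 13200 and 18100 on arrays 1 to 4 and non-treated signals of 23700, 10600, 13500 and 30500. OXA was far lower on arrays 1 and 4, higher on array 2 and level with its partner on array 3. Its log2 ratios were -1.18, 0.41, -0.036 and -0.75, with a mean of -0.39 ± 0.71 (SD, n = 4; limma adjusted p = 0.998). The estimate was -0.65 with array 2 turned (limma adjusted p = 0.188) and -0.22 with Cy5 taken as OXA throughout.

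The spread among the TPM1 probes followed their brightness. A gap in the mean log2 signal, seen after the values were known, separates 11 brighter probes (12.5 to 13.9) from 10 dimmer ones (8.04 to 11.3). On array 1 the brighter probes had log2 ratios of -1.19 to -0.51, all below 0, whereas 8 of the 10 dimmer ones were above 0, with a range of -0.35 to 0.48. On array 2 the order turned over, with 0.13 to 0.44 for the brighter probes, all above 0, and -0.74 to 0.18 for the dimmer ones. This holds for the labelled direction: with array 2 turned the brighter probes have -0.44 to -0.13 and the dimmer ones -0.18 to 0.74, the order of arrays 1 and 4, and 3 of the 21 probes are then negative on all arrays and 2 positive. Array 4 resembled array 1, with -1.32 to -0.68 for the brighter probes and -0.48 to 0.44 for the dimmer ones. Array 3 had little spread, with -0.036 to 0.29 and -0.15 to 0.24. Averaged over the arrays, the brighter probes came to -0.46 to -0.14 and the dimmer ones to -0.063 to 0.055. The value for TPM1 thus depends on the probe, and none of the 21 probes passed the test (lowest unadjusted limma p of 0.249 in the brighter and 0.815 in the dimmer probes).

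**Figure D2:**
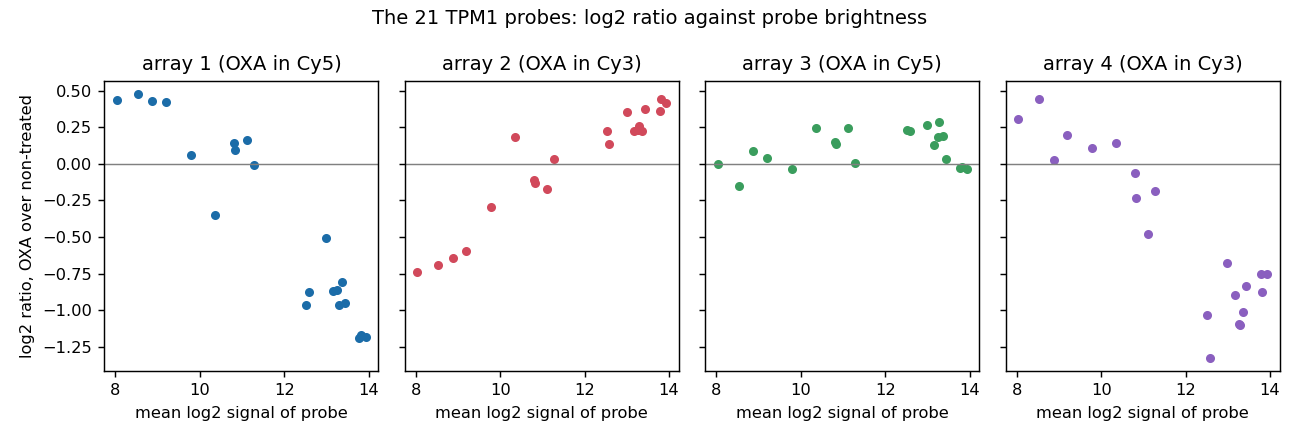
Log2 ratio of OXA over non-treated for each of the 21 TPM1 probes (vertical axis) against the mean log2 processed signal of the probe over all channels (horizontal axis), 1 panel per array. The ratio falls with brightness on arrays 1 and 4, rises on array 2 in the labelled direction and shows no steady slope on array 3.

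Across the 21 probes, Spearman's rho between mean log2 signal and log2 ratio was -0.91, 0.953, 0.0481 and -0.773 on arrays 1 to 4, and Pearson's r was -0.942, 0.951, 0.297 and -0.906. These probes share 1 transcript, and the brightness is computed from the same arrays, so the values are descriptive. Over all tested probes rho was between -0.0251 and 0.0508 on every array. Within genes the picture differed from that over all probes. Of 38 named genes with at least 10 tested probes, only 3 had a rho below 0 on array 2, where the median was 0.724, while the medians on arrays 1, 3 and 4 were -0.181, -0.16 and -0.0985. TPM1 had the lowest rho of the 38 on array 1 and the highest on array 2, and the third lowest on array 4. With array 2 turned its rho there is -0.953, the lowest of the 38, and the median over the genes -0.724. For CFL2, the other gene of the group with at least 10 probes, rho over 10 probes (without the 1 with an aberrant spot, described with that gene) was -0.0182, 0.83, 0.188 and -0.273. Where each probe lies in its transcript was not analysed here.

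Of the proteins that regulate the filament, CNN1 is calponin, the smooth muscle inhibitor of actomyosin (NM_213878). The brighter of its 2 probes had OXA signals of 52800, 28800, 36000 and 45800 and non-treated signals of 44600, 37100, 30600 and 72200 on arrays 1 to 4. The order of the channels changed with the dye: the Cy5 channel was the higher on every array, whichever RNA it held. As OXA over non-treated the log2 ratios were 0.24, -0.36, 0.23 and -0.66, with a mean of -0.14 ± 0.45 (SD, n = 4). With array 2 turned the estimate was -0.19, although the plain mean was then 0.047. Taking Cy5 as OXA throughout, it was 0.37. The dye term of the model, which is the same quantity, had an unadjusted limma p of 0.193. In all, the dye term had an unadjusted limma p under 0.05 for 1 of the 57 probes, beside 2.46% of all tested probes. That 1 was the CFL2 probe with an aberrant spot, described with that gene. The adjusted p of the dye term was under 0.05 for none (0%). The dimmer CNN1 probe averaged -0.37 ± 0.37 (SD, n = 4) and was above 0 on array 3 alone.

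Smoothelin, SMTN (NM_001244360), marks contractile smooth muscle cells. Its brightest probe had OXA signals of 11200, 7710, 8540 and 15800 beside non-treated signals of 15100, 8290, 8210 and 24100. OXA was lower on arrays 1, 2 and 4, and almost level on array 3. The log2 ratios of -0.44, -0.11, 0.057 and -0.61 averaged -0.27 ± 0.30 (SD, n = 4; limma adjusted p = 0.998). The estimate was -0.35 with array 2 turned and 0.083 with Cy5 taken as OXA throughout. Of the 5 SMTN probes 4 had negative means, down to -0.43, and the dimmest had a mean of 0.28. On array 4 the brightest probe had -0.61 and the other 4 ranged from -7.4e-05 to 0.94.

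Among the anchoring proteins, ACTN1 encodes alpha-actinin 1, which cross-links actin filaments (NM_001243061). Its brighter probe had OXA signals of 23200, 18400, 16200 and 30900 on arrays 1 to 4 and non-treated signals of 17200, 13600, 12600 and 22300. The OXA channel was the higher on every array, while the 2 groups overlapped across arrays. Log2 ratios of 0.43, 0.44, 0.36 and 0.47 gave a mean of 0.42 ± 0.045 (SD, n = 4), or 1.34-fold. In the labelled direction this SD was the smallest among the brightest probes of the 9 genes. With array 2 turned it is 0.43, and TPM2 then has the smallest, 0.307. limma, which moderates the variance with that of all probes, gave a standard error of 0.253, an unadjusted p of 0.144 and an adjusted p of 0.998. With both channels fitted separately in limma, the unadjusted p was 0.0484 and the adjusted p 0.979. Of all tested probes 3.96% were above 0 on all 4 arrays, beside this 1 of 55. In either direction 6 of the 55 had 1 sign on all arrays, counting those of TPM2, beside 7.72% of all tested probes. The estimate was 0.29 with array 2 turned and -0.029 with Cy5 taken as OXA throughout. The second ACTN1 probe was dim, well above background in 3 OXA and 3 non-treated channels, and had 0.31, -0.42, 0.19 and 0.36. It shared the sign of the first probe on arrays 1, 3 and 4.

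PDLIM3, the actinin-associated LIM protein (NM_001001637), had 1 bright probe and 3 dim ones. The bright probe had OXA signals of 2990, 1030, 1410 and 8350 and non-treated signals of 3200, 2280, 1550 and 6320. Array 4 had the highest signal in both groups, and it was also the array on which OXA was higher. The log2 ratios were -0.10, -1.14, -0.13 and 0.40, with a mean of -0.24 ± 0.65 (SD, n = 4). Without array 2 the estimate was 0.14, with array 2 turned 0.35, and with Cy5 taken as OXA throughout 0.13. Both tested dim probes were well above background in 2 OXA and 3 non-treated channels, so they entered the test only through the non-treated group. Such entry favours lower ratios, and its part in these values was not tested. The dim probe left out of the test was well above background in 0 OXA channels and 1 non-treated channel. It had log2 ratios of -1.32, -0.084, 0.27 and -2.41. A_72_P642023 had log2 ratios of -2.06, 0.040, -0.51 and -1.20, and A_72_P575939 had -2.38, 0.52, -0.89 and -0.91. In these deposited ratios both were far below 0 on array 1 and above it on array 2, unlike the bright probe. On array 1 their OXA signals were only 14.3 and 11.3, beside non-treated signals of 59.9 and 59.1. With normexp and loess they had -0.56 and -0.53 on array 1, and -0.014 and 0.24 on array 2. In limma's fit across all probes their unadjusted p was 0.0484 and 0.0561, and the adjusted p of each was 0.998. With array 2 turned, these 2 probes and 7 of TPM1 had an unadjusted p under 0.05, 9 of 57 beside 27% of all tested probes, and their adjusted p in limma was 0.124 to 0.181. Without array 2 both were called lower by limma, at estimates of -1.25 and -1.27, where the same fit called 5.68% of all tested probes. Both had a standard error of 0.372, the same as the brightest probes of all 9 genes in that fit. These 2 calls thus did not rest on the spread of the dim probes themselves.

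DES, the intermediate filament protein desmin (NM_001001535), had a brightest probe with OXA signals of 131000, 86900, 102000 and 164000 and non-treated signals of 100000, 98000, 60800 and 186000. OXA was higher on arrays 1 and 3 and slightly lower on arrays 2 and 4, again the split by dye. The log2 ratios were 0.38, -0.17, 0.75 and -0.18, with a mean of 0.20 ± 0.46 (SD, n = 4; limma adjusted p = 0.998). The other 3 DES probes gave another pattern, with -1.11 to -0.75 on array 1 and 0.25 to 0.45 on array 4. On array 1, 1 of them, A_72_P601893, carried an outlier flag, and this value was left out of its fit and mean. Their means over the arrays lay between -0.21 and 0.089. Averaging the probes on each array first, without the flagged value, and then the arrays gave -0.028. The median of the 4 probe means was 0.014, with 2 of them negative and 2 positive, so the direction for DES depends on the probe. For the brightest probe the estimate was 0.13 with array 2 turned and 0.37 with Cy5 taken as OXA throughout.

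CFL2, the muscle cofilin that turns over actin filaments (NM_001025215), had 11 probes. The brightest had OXA signals of 18300, 10000, 20000 and 17900 and non-treated signals of 25100, 8740, 13800 and 39200 on arrays 1 to 4. Most of the spread lay in the non-treated channel, which was highest on array 4 and lowest on array 2. Log2 ratios were -0.46, 0.20, 0.54 and -1.14, with a mean of -0.21 ± 0.74 (SD, n = 4). Leaving out 1 probe described next, the 10 probes had log2 ratios of 0.17 to 0.70 on array 3 and -1.14 to -0.44 on array 4, all of 1 sign on each. On array 1 they ran from -1.09 to 0.23, with 1 above 0, and on array 2 from -0.28 to 0.39, with 7 above 0. Their means were -0.57 to -0.041. With Cy5 taken as OXA throughout the brightest probe had an estimate of 0.26, and with array 2 turned -0.59 (limma adjusted p = 0.207). The estimate was 0.037 without array 1 and 0.12 without array 4.

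A single CFL2 spot would mislead if taken at face value. Probe A_72_P674696 had a log2 ratio of 7.46 on array 3, whereas arrays 1, 2 and 4 gave -0.86 to -0.13. On that array its Cy3 channel had a processed signal of 11.4, while its Cy3 signal on the other arrays was 1750 to 4340, and its Cy5 signal there was 2010. The median Cy3 intensity of the spot was 176 there, compared with 2652 to 5278 elsewhere. The spot is a single one on each array and carried no outlier flag on array 3, but it did on array 1, whose value was left out of the fit. Its unadjusted limma p was 0.000185. limma called the probe without array 1, without array 2 and without array 4, in fits whose calls did not rest on the spread of each probe. The fit without array 1 called 0.00513% of all tested probes, that without array 3 0.0256% with 0 of the 57, and that without array 4 0.0308%. None of the other 10 CFL2 probes was above 0.70 on array 3. The value rests on 1 channel of 1 spot, and nothing on CFL2 is read from it.

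**Figure D3:**
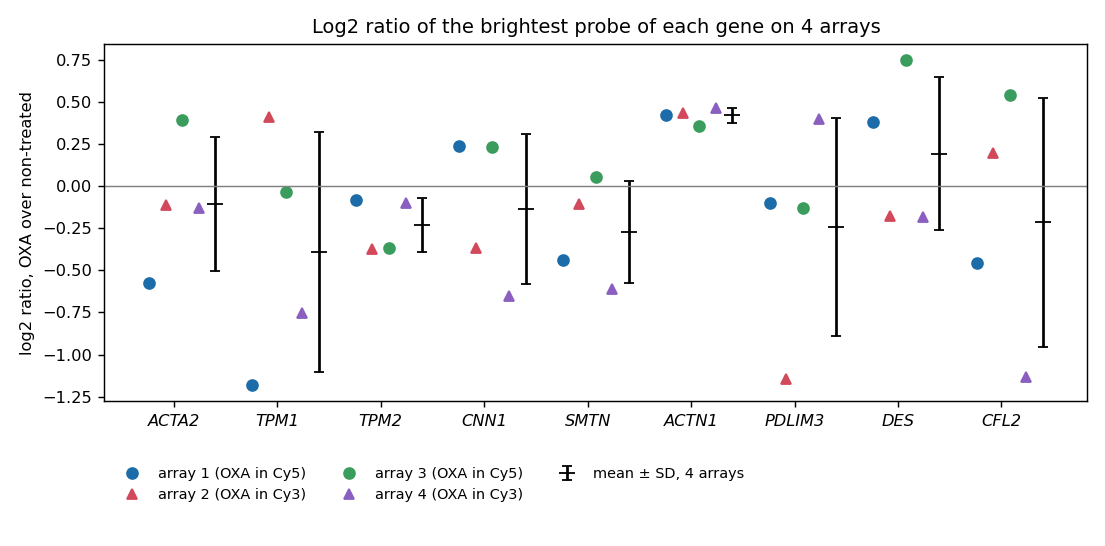
Log2 ratio of OXA over non-treated for the brightest probe of each gene, with 1 symbol per array and the mean ± SD over the 4 arrays in black. ACTN1 lies at 0.36 to 0.47 on all arrays and TPM2 between -0.37 and -0.083, and the other 7 genes have values on both sides of 0.

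Seen together, 7 of the 9 brightest probes had a negative mean, with a median of -0.21, and ACTN1 and DES a positive one. Over the brightest probes of all 1985 named tested genes the median was 0.077, with 770 negative and 1215 positive. All tested probes leaned the other way, with a median of -0.021. Of the 9 estimates, 6 were negative with array 2 turned. By array, the medians of the 9 genes were -0.10, -0.11, 0.23 and -0.18, and those of the 1985 genes 0.25, -0.22, 0.021 and 0.29. Over all 57 tested probes of the 9 genes 44 had negative means (77.2%), beside 52.9% of all tested probes. This share was 61.4% beside 48.2% with array 2 turned, and 31.6% beside 47.5% with Cy5 taken as OXA throughout. TPM1 supplied 16 of the 44 and CFL2 10, but these genes also hold 21 and 11 of the 57 tested probes. Probes of 1 gene are not independent, so this is no count of genes. With Cy5 taken as OXA throughout, the estimates of 7 of the 9 genes changed sign and those of TPM1 and DES did not.

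The arrays differed in how the group lay. On array 1 41 of 55 probes of the 9 genes were below 0 (74.5%), beside 49.8% of all tested probes. Array 4 was similar, with 40 of 57 (70.2%) beside 49.5%, and array 3 was the opposite, with 17 of 57 (29.8%) beside 49.8%. On array 2 the share was 57.9% beside 52.8%, or 42.1% beside 47.2% when that array is turned. Across the probes of the 9 genes, arrays 1 and 4 correlated at r = 0.561 and arrays 2 and 4 at r = -0.553. In 23 of 55 probes the value was below 0 on array 1 and above 0 on array 2, beside 35.7% of all tested probes, and 13 showed the reverse, beside 38.7%. For 0 of the 55 probes did the 4 OXA signals all lie below or all above the 4 non-treated signals, beside 0.242% and 0.381% of all tested probes.

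**Figure D4:**
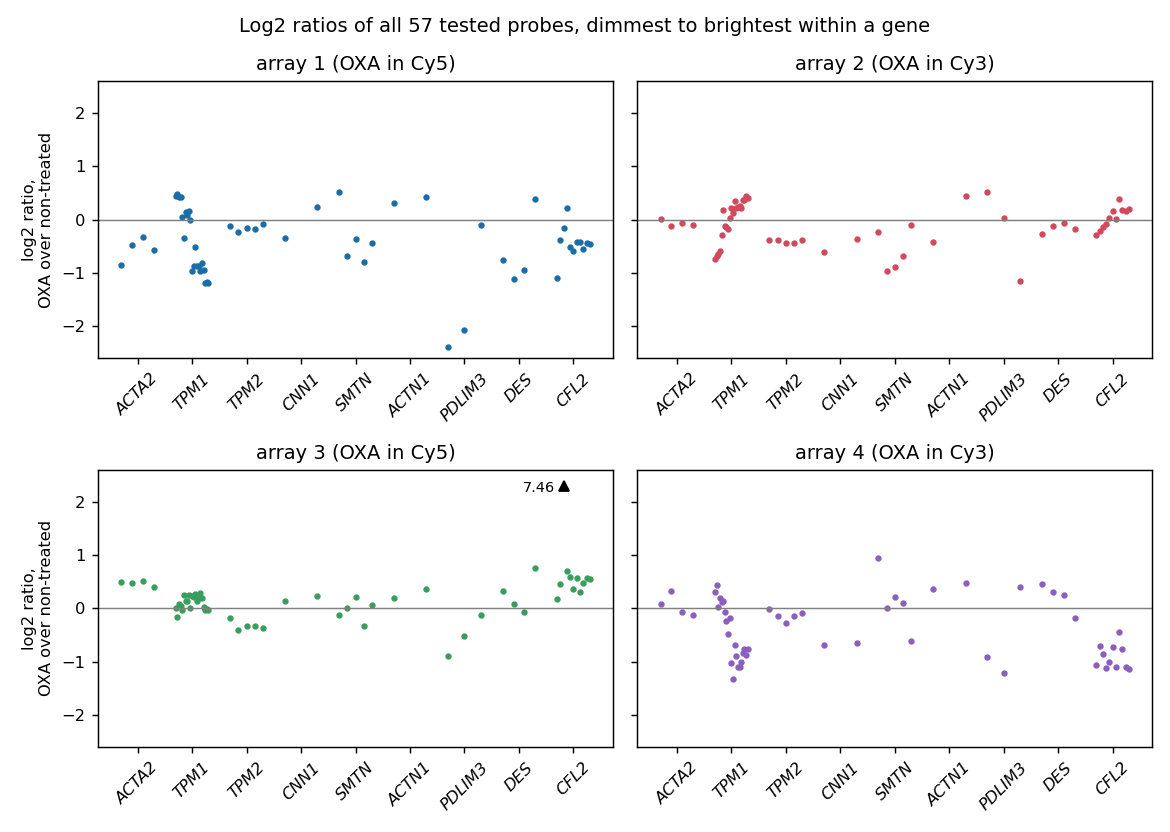
Log2 ratios of OXA over non-treated for the 57 tested probes, in 1 panel per array, with the probes of a gene ordered from dimmest to brightest. The TPM2 probes lie below 0 in every panel, those of CFL2 lie above 0 on array 3 and below 0 on array 4, and the black triangle marks the CFL2 value of 7.46, off the scale.

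Close relatives of these genes were also without a call. Actins and tropomyosins are near-identical in places, and whether a probe tells them apart was not analysed here. Of 16 further thin filament and contractile genes listed, 5 could be named and tested, with 1 positive and 4 negative estimates and a median of -0.064. MYLK, the myosin light chain kinase, had a log2 ratio of -0.42 ± 1.01 and MYL9, the regulatory light chain, -0.16 ± 0.27 (SD, n = 4). The tropomyosins TPM3 and TPM4 had 0.22 ± 0.41 and -0.064 ± 0.41 (SD, n = 4). ACTA1 and ACTC1, the striated muscle actins, had -0.18 ± 0.44 and -0.0036 ± 0.56 (SD, n = 4), and on array 1 both were negative, as ACTA2 was. Their array medians ran from -0.71 to 0.39.

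Genes of actin turnover were balanced, with 7 positive and 7 negative estimates among the 14 tested of 22 listed and a median of 0.043. DIAPH1, a formin that nucleates actin filaments, had 0.81 ± 0.96 and TMSB10, an actin monomer binder, 0.37 ± 0.44 (SD, n = 4). CAPZA1, a filament capping subunit, was negative on all arrays with -0.39 ± 0.25, and SSH1, a phosphatase that activates cofilin, had 0.42 ± 0.82 (SD, n = 4). Of 22 genes of dense plaques, Z-lines and intermediate filaments, 4 were tested, 3 of them negative, with array medians of -0.58 to 0.35. ACTN2, the striated muscle alpha-actinin, had -0.45 ± 1.42, FHL1 had -0.35 ± 0.61, the integrin subunit ITGB1 had -0.068 ± 0.70 and vinculin (VCL) had 0.11 ± 0.51 (SD, n = 4). Among SRF cofactors and related factors, MYOCD, the myocardin gene, had 0.024 ± 0.23, TEAD1 had -0.23 ± 0.94 and MEF2C -0.21 ± 0.64 (SD, n = 4). The lowest adjusted p among the genes of these lists was 0.998 in limma.

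The list medians of epithelium and macrophage markers lay further from 0 on each array than those of the 9 genes, though not every marker followed its list. Uterine epithelium markers, with 7 tested of 9 named and 15 listed, had median log2 ratios of -1.19, 2.06, -0.90 and 1.53 on arrays 1 to 4. These medians split by dye, below 0 where OXA was in Cy5 and above 0 where it was in Cy3. KRT8, LCN2 and SPP1 did not split this way, and the cause was not tested. The summed signal of the list was 2830 to 14700 in the OXA channels and 3330 to 7130 in the non-treated channels. Within this list LCN2 was negative on all arrays, with -0.62 ± 0.40, and SPP1 had 0.18 ± 0.21 (SD, n = 4). CLDN4 was well above background in 3 of 8 channels and UPK1B in none. Macrophage markers, 10 tested of 11 named and 13 listed, had medians of 0.62, -0.67, 1.57 and 0.73, with summed signals of 1730 to 11800 with OXA and 1900 to 6860 without. CD163 had -0.64, 0.30, 1.18 and -0.32, opposite in sign to the macrophage median on arrays 1, 2 and 4. LYZ was well above background in 1 channel. On arrays 1 to 4, summed epithelial OXA signal was 0.852, 3.02, 0.797 and 1.43 times the non-treated signal, as labelled. For the macrophage markers it was 1.57, 0.598, 2.56 and 1.72 times. On array 2 the brightest probes of ACTN1, TPM1 and CFL2 were positive and those of the other 6 genes negative. Turning array 2 inverts its ratios and these signs. The part of these cells in the muscle gene values was not tested.

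Other markers were named in small numbers. Fibroblast and stroma markers (3 of 8) had medians of -0.14, -0.43, 0.19 and -0.59, with summed signals of 40600 to 51100 in OXA and 45600 to 71600 in non-treated channels. Endothelium markers (5 of 8) had -0.42, -0.35, 0.060 and 0.54, with summed signals of 4410 to 11600 and 5730 to 8620. The platelet gene PPBP, the 1 named blood marker of 6, had 2.32, -0.47, 0.91 and 1.29, and the pericyte gene RGS5, 1 of 6, had -1.07, 1.57, 0.51 and -0.93. The 3 smooth muscle markers had medians of 0.12, -0.13, 0.30 and -0.20, on each array the value of MYOCD. MYLK had -1.15, 0.23, 0.64 and -1.42, and KCNMB1 had 0.43, -1.17, 0.23 and 0.17. Summed over these 3 genes, the OXA signal was 0.505, 1.14, 1.51 and 0.419 times the non-treated signal. The 3 tested striated muscle markers had medians of -0.57, -0.075, 0.30 and -0.17.

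**Figure D5:**
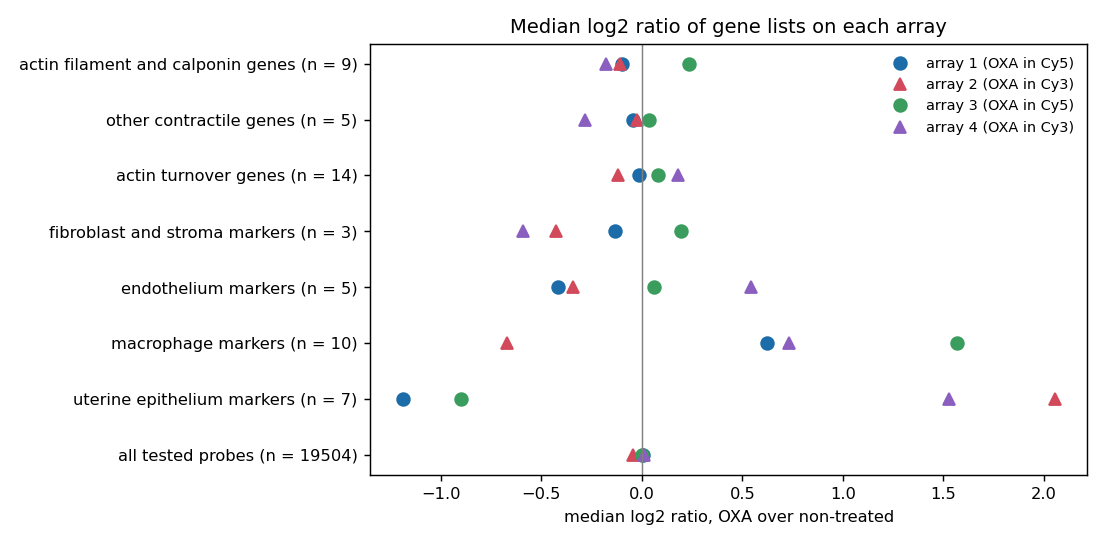
Median log2 ratio of OXA over non-treated on each array for the actin filament and calponin genes, other gene lists and all tested probes, with the number of genes or probes in brackets. Of the lists plotted, the actin filament and calponin genes, the other contractile genes and the actin turnover genes lie between -0.28 and 0.23, while epithelial medians run from -1.19 to 2.06 and macrophage medians from -0.67 to 1.57.

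The genes whose brightest probe lay nearest to the median of the 9 genes over the 4 arrays were DNAJC19, RBMX, THBS1, SDHB and ARNTL, at Euclidean distances of 0.141, 0.148, 0.154, 0.163 and 0.185 on the log2 scale. They were taken from 1968 named genes outside the group. With 4 values per gene, such a likeness describes these arrays only.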

How the data were processed

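Total RNA of OXA-treated and non-treated explants was measured on 4 dual-colour arrays. Per the file headers, the authors extracted spot intensity with Agilent Feature Extraction 10.7.3.1. Its processed signal intensity is background-subtracted and dye-normalized within the array, and its LogRatio is a log10 ratio of Cy5 over Cy3. The deposited value table holds log2 ratios, and it matched the scanner's ratios within 0.001 for at least 99.99% of probes well above background, with the sign turned on arrays 2 and 4. Median log2 ratios of tested probes were between -0.046 and 0.0094, and no centring was added.

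Accessions were matched without versions to RefSeq genes (Sscrofa11.1, names alone), which named 6700 probes. Spots with outlier flags and 1417 control spots were left out. limma 3.58.1 in R 4.3.3 fitted OXA and dye terms (2 residual and 4.13 prior degrees of freedom) on 19504 probes, 44.7% of all. P-values are two-sided and Benjamini-Hochberg adjusted. Having 4 arrays limits the precision, and signals were not scaled between arrays. A gene is represented by its brightest tested probe. From each further list, up to 4 genes with the smallest p were named, and the 5 nearest patterns. The genes and lists were chosen with earlier results of these data known. Alternatives covered normalization, filtering, dye terms, direction, array weights, separate channels, probe choice and leaving out arrays.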

Additional observations from a re-analysis of the deposited data

Results flagged for a closer look

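Log2 ratios of the tested probes, and the OXA and non-treated log2 signals of the 9 brightest probes, gave 73 sets of 4 values. In 2 of these sets Dixon's test picked out a single array, where chance alone would do so in about 1 set in 20. For the TPM1 probe A_72_P752169 it was array 1, with a log2 ratio of -0.348 against a range of 0.144 to 0.244. For the brightest CFL2 probe it was the OXA channel of array 2, whose log2 signal of 13.3 lay below the range of 14.1 to 14.3 of the remaining arrays.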

How the results depend on the processing

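The 4 arrays on 1 slide and a direction that is not settled limit these results. Of the 9 genes, the estimates of all kept their sign with normexp and loess, median centring, both other filters, no dye term, array weights and separate channels, and 0 probes were called under each of these. With Cy5 taken as OXA throughout, the estimates turned to 0.015 for ACTA2, -0.029 for ACTN1, 0.37 for CNN1, 0.0050 for TPM2, 0.083 for SMTN, 0.13 for PDLIM3 and 0.26 for CFL2. PDLIM3 turned to 0.35 with array 2 turned, a setting with 5264 probes (27%) and 9 of the 57 at an unadjusted p under 0.05 and 0 called. DES turned to -0.028 when its probes were averaged on each array first, although the median of its probe means was 0.014. At an unadjusted p, 237 probes and 2 of the 57 passed, and 1 of 56 without the CFL2 spot dim in Cy3, an alternative chosen after seeing the data. Leaving out 1 array gave 1 to 1108 called probes, most without array 2, and 0 to 3 of the 57. The estimates then ran from -0.35 to 0.14 for ACTA2, -0.55 to 0.12 for CFL2, -0.63 to 0.14 for PDLIM3, -0.68 to -0.097 for TPM1, -0.21 to -0.063 for CNN1, -0.40 to -0.15 for SMTN, -0.30 to -0.16 for TPM2, 0.10 to 0.29 for DES and 0.41 to 0.44 for ACTN1. Such fits keep 1 array with an orientation of its own, which is assumed to vary like the remaining ones. The brightest probes of all 9 genes had 1 common standard error in each of these fits. It was 0.578 without array 1 or 3 and 0.372 without array 2 or 4. Calls in these fits thus did not rest on the spread of each probe. The causes were not tested. Each log ratio is paired within its array, and no further replicate block could be fitted, since the arrays form 1 group.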
